A study of Mus musculus with 96 samples.

Results

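The activated state of microglia is described here by 9 genes, Trem2, Tyrobp, Clec7a, Itgax, Axl, Slc11a1, Cst7, Lpl and Apoe, together with the chemokine gene Cxcl10. They are 10 of the 19918 genes in the count tables of mouse prefrontal cortex and nucleus accumbens. The genes were chosen by measured values of these same libraries, when lower levels of Cxcl10 and Itgax in XX than in XY mice were already known, so values and calls of that comparison are given below as a description and support nothing. All 10 passed the filter on low counts in each region, though Cxcl10, Cst7 and Clec7a had few counts in XX mice.

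Microglia are the resident macrophages of the brain. Near damaged cells, myelin debris or amyloid they are known to take up a disease-associated state, in which Trem2, a receptor for lipids and lipoproteins, signals through the adaptor Tyrobp, and in which Apoe, Lpl, Cst7, Itgax, Axl and Clec7a are raised. Cxcl10 is induced by interferons in microglia, astrocytes and endothelium and attracts T cells through the receptor Cxcr3. In the resting brain Apoe comes mostly from astrocytes, and Lpl is made by neurons as well.

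The study used 48 mice of the FCG model, in which Sry, the gene that starts testis formation, is missing from the Y chromosome (written Y-) and is supplied as an autosomal transgene. XXSry and XY-Sry mice carried the transgene and had testes, and XX and XY- mice had ovaries. Stressed mice underwent subchronic variable stress, for which the labels give 3 sessions of 1 h over 6 days, and control mice were not stressed. There were 6 stressed and 6 control XXSry mice, 6 and 5 XX mice, 6 and 6 XY-Sry mice, and 6 and 7 XY- mice. Nucleus accumbens (NAc) and prefrontal cortex (PFC) were punched from each animal, which gave 96 bulk libraries of polyadenylated RNA in cohorts of 23, 12 and 13 animals. Cohort 2 held no stressed XXSry or XY- mice, and cohort 3 no control XX or XXSry mice. XX is used below for XX and XXSry mice together where it is set against XY, which stands for XY- and XY-Sry mice together. A second X and the lack of a Y- chromosome cannot be told apart in that comparison, nor can testes and the Sry transgene in the comparison of gonads.

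The promoters of 4 members are shown because they hold matches to patterns based on motifs of factors known to act in macrophages or after interferon. Each window runs from 250 bases before to 50 after the RefSeq start on GRCm38.p6, 5′ to 3′ on the gene's strand, with pattern matches in capitals. The windows are chr5:92348840-92349139 on the minus strand for Cxcl10, and, on the plus strand, chr7:128129300-128129599 for Itgax, chr2:150570165-150570464 for Cst7 and chr17:48346151-48346450 for Trem2.
Cxcl10: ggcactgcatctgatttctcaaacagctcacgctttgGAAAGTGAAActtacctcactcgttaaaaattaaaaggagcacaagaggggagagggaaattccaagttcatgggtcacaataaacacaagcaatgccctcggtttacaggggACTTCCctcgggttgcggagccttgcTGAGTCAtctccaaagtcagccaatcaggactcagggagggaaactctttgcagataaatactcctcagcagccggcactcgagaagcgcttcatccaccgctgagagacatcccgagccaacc
Itgax: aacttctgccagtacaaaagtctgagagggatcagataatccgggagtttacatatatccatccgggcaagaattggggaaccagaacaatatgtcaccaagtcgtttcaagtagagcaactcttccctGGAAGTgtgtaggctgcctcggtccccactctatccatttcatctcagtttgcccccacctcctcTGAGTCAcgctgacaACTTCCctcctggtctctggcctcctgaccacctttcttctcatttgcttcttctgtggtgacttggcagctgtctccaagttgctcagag
Cst7: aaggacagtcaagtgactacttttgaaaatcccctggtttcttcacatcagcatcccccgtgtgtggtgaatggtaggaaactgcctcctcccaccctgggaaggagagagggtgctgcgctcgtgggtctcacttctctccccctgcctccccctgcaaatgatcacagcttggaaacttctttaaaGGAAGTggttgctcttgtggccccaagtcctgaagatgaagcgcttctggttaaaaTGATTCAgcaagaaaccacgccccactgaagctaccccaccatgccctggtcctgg
Trem2: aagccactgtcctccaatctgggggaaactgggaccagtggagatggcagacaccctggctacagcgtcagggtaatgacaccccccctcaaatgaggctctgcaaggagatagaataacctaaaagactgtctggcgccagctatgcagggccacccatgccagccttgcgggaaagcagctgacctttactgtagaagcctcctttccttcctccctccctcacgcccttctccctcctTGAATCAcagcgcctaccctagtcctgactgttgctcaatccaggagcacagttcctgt
Both strands were searched for 3 patterns, whose matches do not overlap each other in these windows. The core of the interferon-stimulated response element was searched as GAAA, any 2 bases, then GAAA. It is in 3.44% of 32851 mouse promoter windows and in 1 of the 11 windows of the 8 members that have one, that of Cxcl10, as GAAAGTGAAA with its first base at -213 from the start. GGAAGT, a core bound by ETS factors such as PU.1, is in 23.8% of all windows and in 3 of the 11. Its first base lies at -121 and, on the opposite strand, at -41 in Itgax, at -62 in Cst7, and on the opposite strand at -100 in Cxcl10. TGANTCA, a loose pattern for the AP-1 site, is in 7.81% of all windows and in 4 of the 11. It matched as TGAGTCA at -74 in Cxcl10 and -56 in Itgax, as TGATTCA at -6 in Cst7 and as TGAATCA at -9 in Trem2. The AP-1 consensus has G or C in place of N, so only the matches in Cxcl10 and Itgax have its letters. These are matches of letters and not measured binding sites.

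Total counts ran from 45.9 to 120.8 M per NAc library and from 67.6 to 104.4 M per PFC library. All 16 homeostatic microglia markers were measured, among them P2ry12 at a mean of 41.7 counts per M counts (CPM) in NAc and 45.5 CPM in PFC, and Csf1r at 71.4 and 87.1 CPM. Markers of other immune cells and of blood were present at differing levels. S100a8 of neutrophils averaged 0.108 CPM in NAc and 0.451 CPM in PFC, and Ccr2 of monocytes 0.145 and 0.427 CPM. Of the dendritic cell markers, Zbtb46 and Flt3 were the highest, at 8.31 and 2.89 CPM in NAc and 24.2 and 5.95 CPM in PFC. The others were far lower: Batf3 averaged 0.133 CPM in NAc and 1.09 CPM in PFC, Cd209a 0.0816 and 0.454 CPM, and Ccr7 0.148 and 0.0503 CPM. The haemoglobin gene Hbb-bs averaged 37.4 CPM in NAc and 90.5 CPM in PFC. Of 10 T and NK cell genes, 2 were measured, Cd4 at 33.1 CPM in NAc and 0.693 CPM in PFC and Trbc2 at 1.67 and 14.4 CPM. The other 8 were not found by symbol among the genes of the count tables. In whole tissue the cell that made a member's RNA is not known, and fewer cells of a type cannot be told apart from less RNA per cell.

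A few libraries stood apart on these genes. The PFC library of stressed XY- mouse 32 was the highest of 48 for 8 of the 10 members, and the NAc library of control XY-Sry mouse 33 was the highest for 7. Stressed XY- mouse 41 was among the highest 3 for 8 members in NAc and for 7 in PFC. Summed homeostatic microglia markers were also highest in mouse 33 in NAc, at 683 CPM, and in mouse 32 in PFC, at 698 CPM. In its other region neither animal was extreme for Itgax, with 0.372 CPM in NAc of mouse 32 and 0.414 CPM in PFC of mouse 33. For some other members they were: NAc of mouse 32 ranked 2 of 48 for Apoe, 4 for Tyrobp and Axl, 5 for Cst7 and 47 for Lpl, and PFC of mouse 33 ranked 2 for Cxcl10 and Lpl and 5 for Slc11a1. Results that rest on them are given with and without the 2 libraries of the region that had the most Itgax (mice 33 and 41 in NAc, 32 and 41 in PFC), a choice made after the values were seen. All are XY libraries, so the choice itself moves Itgax, and genes that vary with it, toward 0 for XX minus XY. In PFC both are from stressed XY- mice, so there it also lowers Itgax, and genes that vary with it, in that group.

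The members spanned a wide range of levels. Per length (CPM per kilobase of exon, RPKM), Apoe, the main apolipoprotein of the brain (ENSMUSG00000002985, chr7:19696109-19699188, minus strand), was the highest, with 280.3 ± 32.2 RPKM in NAc and 348 ± 29.4 RPKM in PFC (SD, n = 48 in each region, as for the other levels per length). Tyrobp, the signalling adaptor (ENSMUSG00000030579, chr7:30413760-30417585, plus strand), followed with 11.1 ± 2.43 RPKM in NAc and 12.8 ± 1.97 RPKM in PFC. Next came Axl, a receptor tyrosine kinase that binds Gas6 in the clearance of dying cells (ENSMUSG00000002602, chr7:25757273-25788705, minus strand), with 7.43 ± 0.729 and 8.33 ± 0.834 RPKM. Lpl, the lipase that frees fatty acids from lipoproteins (ENSMUSG00000015568, chr8:68880491-68907448, plus strand), was within the spread of Axl in NAc, at 7.06 ± 1.35 RPKM, and below it in PFC, at 2.18 ± 0.322 RPKM. Trem2 (ENSMUSG00000023992, chr17:48346401-48354147, plus strand) had 1.56 ± 0.300 RPKM in NAc and 1.78 ± 0.257 RPKM in PFC, where its range overlapped that of Lpl. Slc11a1, a metal transporter of the phagosome membrane (ENSMUSG00000026177, chr1:74375195-74386062, plus strand), had 0.479 ± 0.147 and 0.629 ± 0.183 RPKM.

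The other 4 members were near the lower limit of the libraries. Cxcl10 (ENSMUSG00000034855, chr5:92346638-92348889, minus strand) averaged 0.195 ± 0.368 RPKM in NAc and 0.107 ± 0.275 RPKM in PFC. Cst7, which encodes the protease inhibitor cystatin F (ENSMUSG00000068129, chr2:150570415-150578944, plus strand), averaged 0.179 ± 0.290 and 0.187 ± 0.302 RPKM. Clec7a, the beta-glucan receptor dectin-1 (ENSMUSG00000079293, chr6:129461591-129472779, minus strand), averaged 0.128 ± 0.201 and 0.0815 ± 0.156 RPKM. Their spreads exceed their means, as does that of Itgax, the integrin chain CD11c (ENSMUSG00000030789, chr7:128129547-128150657, plus strand), with 0.0906 ± 0.141 and 0.0963 ± 0.189 RPKM, so these 4 do not differ beyond their spread. A count of 0 allows a level of up to 0.0234 to 0.0632 CPM in a NAc library and 0.0301 to 0.0460 CPM in a PFC library (3 counts, counting error only). Cxcl10 had a count of 0 in 6 NAc libraries (4 XX, 2 XY) and in 2 PFC libraries (both XX). Its median count was 3 in XX and 26 in XY libraries of NAc, and 3 and 13 in PFC. For Cst7 the medians were 4 and 11 in NAc and 6 and 14 in PFC. For Clec7a they were 10 and 26 in NAc and 6 and 12 in PFC. Tests of these 3 genes within XX or XXSry mice thus rest on few counts. Cxcl10 also overlaps Art3 on the opposite strand, and since the strand setting of the counting is not known its values are uncertain. Art3 averaged 3.25 ± 0.438 CPM in NAc and 2.67 ± 0.320 CPM in PFC (SD, n = 48 each), with log2 fold changes, XX minus XY, of -0.02 and -0.05. Clec7a is annotated as a polymorphic pseudogene in the gene set used.

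**Figure D1:**
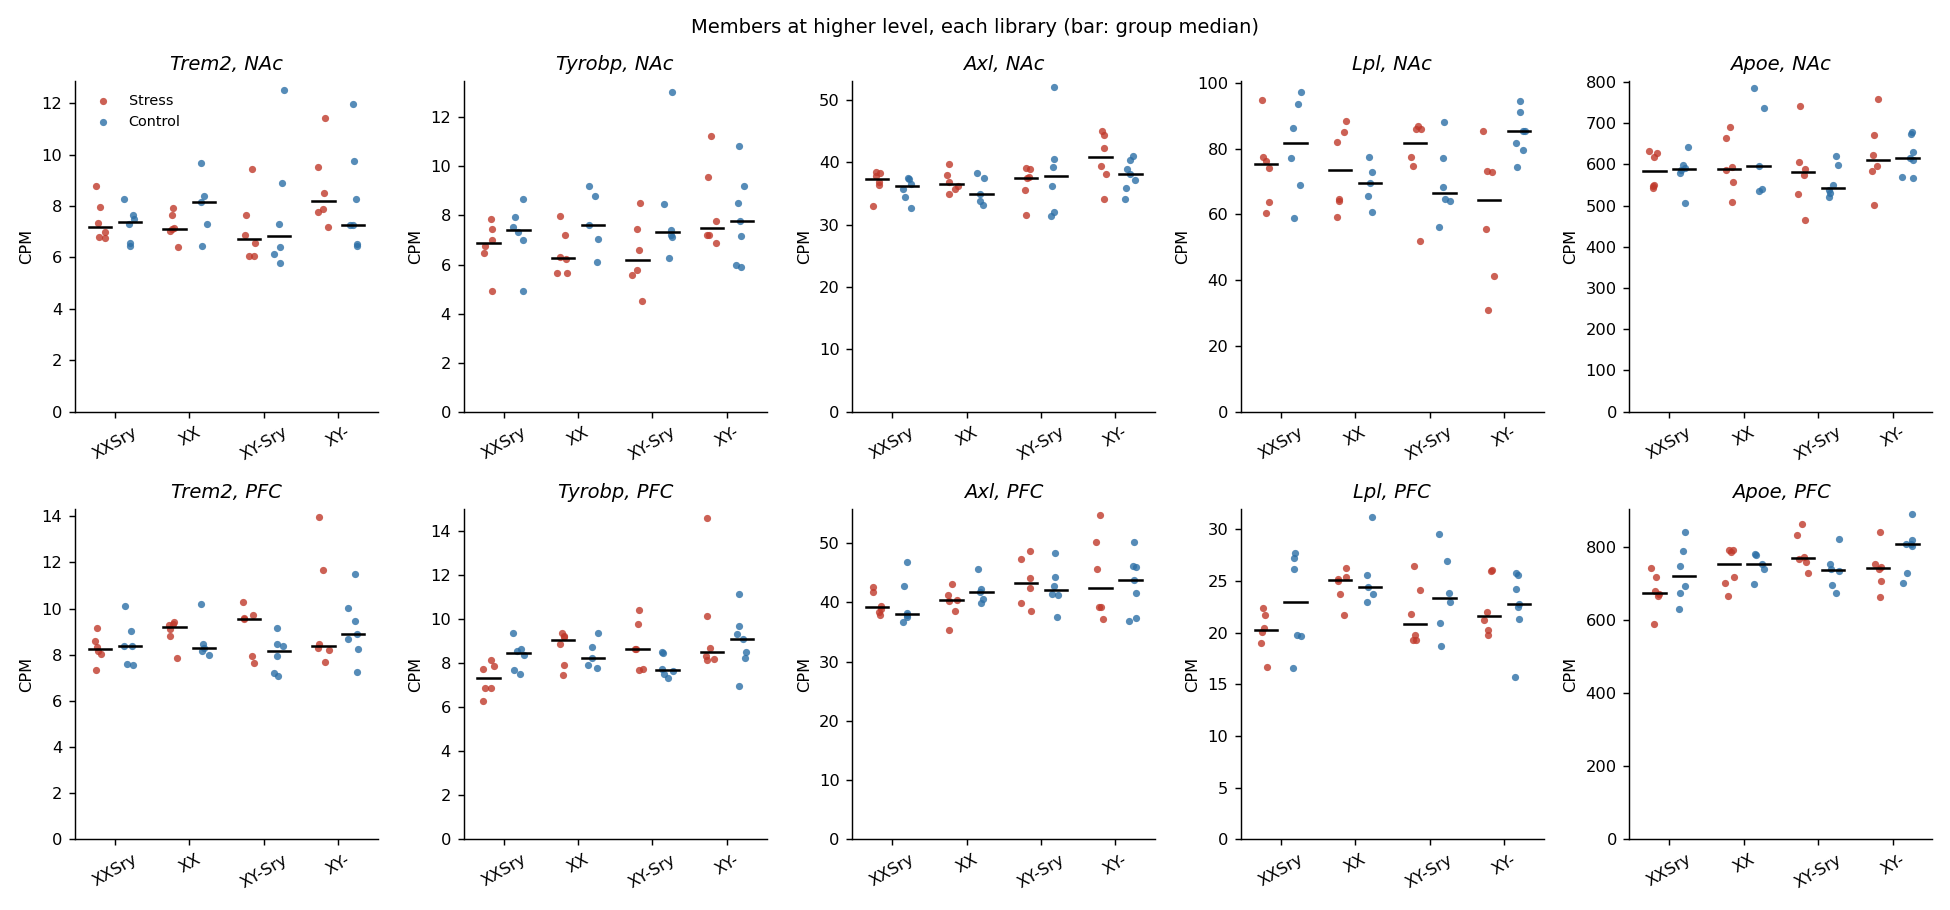
CPM of Trem2, Tyrobp, Axl, Lpl and Apoe (linear axes from 0) in each library, NAc in the top row and PFC in the bottom row, by genotype, with stressed animals in red left of control animals in blue and group medians as bars. Lpl lies higher in NAc than in PFC, and stressed and control animals overlap.

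**Figure D2:**
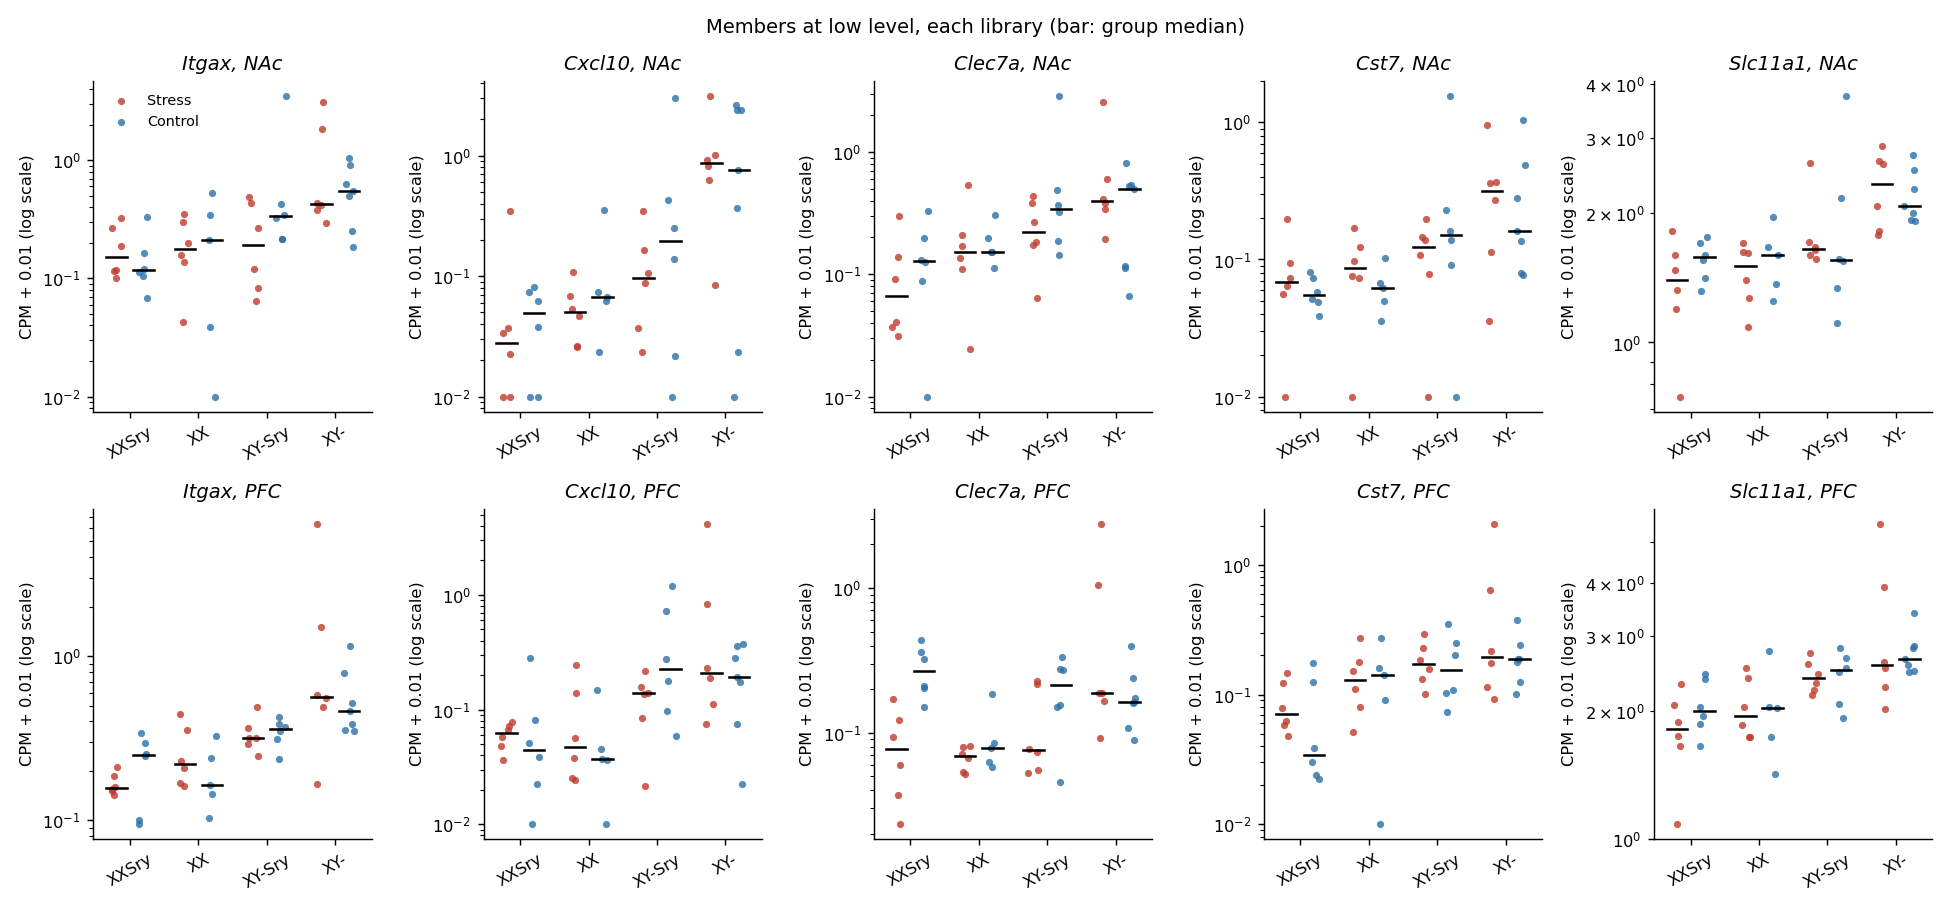
CPM + 0.01 (log axis) of Itgax, Cxcl10, Clec7a, Cst7 and Slc11a1 in each library, in the same layout. Libraries of 1 group spread widely, and the highest value of each gene in each region is in an XY- or XY-Sry animal.

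The clearest difference between the regions was that of Lpl, which was higher in NAc than in PFC in 48 of 48 animals. Its lowest, median and highest levels were 30.8, 75.6 and 97.3 CPM in NAc and 15.7, 22.9 and 31.2 CPM in PFC. The ranges overlapped only through the lowest NAc library, that of stressed XY- mouse 26. The log2 fold change, NAc minus PFC, was 1.67 (SE 0.0589, edgeR quasi-likelihood test with the animal as block, Benjamini-Hochberg adjusted p = 2.58e-30). Means over the animals of cohorts 1, 2 and 3 were 1.71, 1.68 and 1.61. Clec7a was the other member that was higher in NAc, with 0, 0.181 and 2.85 CPM in NAc against 0.0133, 0.140 and 2.77 CPM in PFC. It was higher in NAc in 33 of 48 animals and its ranges overlapped almost wholly. Its edgeR log2 fold change was 0.74 (SE 0.255, adjusted p = 0.00699), and in unstressed animals alone it was 0.62 and did not pass (edgeR adjusted p = 0.162).

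Slc11a1, Apoe, the receptor genes Trem2 and Axl and the adaptor gene Tyrobp were lower in NAc. Apoe had 465.7, 592 and 787 CPM (lowest, median and highest) in NAc and 589.8, 742 and 888 CPM in PFC, and 5 of 48 animals had more of it in NAc. Its edgeR log2 fold change was -0.31 (SE 0.0311, adjusted p = 1.98e-13). The regions overlapped for Apoe, as they did for the 4 genes that follow. Slc11a1 had 0.738, 1.65 and 3.74 CPM in NAc and 1.07, 2.31 and 5.50 CPM in PFC, with 8 of 48 animals higher in NAc and a fitted log2 fold change of -0.38 (SE 0.0568, adjusted p = 1.99e-08). Tyrobp had 4.52, 7.21 and 13.1 CPM in NAc and 6.28, 8.35 and 14.6 CPM in PFC, with a fitted log2 fold change of -0.21 (SE 0.0463, adjusted p = 4.56e-05). Its receptor differed by a similar amount. Trem2 had 5.78, 7.30 and 12.5 CPM in NAc and 7.09, 8.47 and 13.99 CPM in PFC, with a fitted log2 fold change of -0.18 (SE 0.0361, adjusted p = 9.48e-06). Axl had 31.4, 37.4 and 51.998 CPM in NAc and 35.3, 41.4 and 54.8 CPM in PFC, with a fitted log2 fold change of -0.16 (SE 0.0263, adjusted p = 3.33e-07). In cohort 2 the pair of Trem2 and Tyrobp lay near 0: means over the animals of cohorts 1, 2 and 3 were -0.25, 0.023 and -0.31 for Trem2 and -0.26, -0.052 and -0.32 for Tyrobp. Itgax (log2 fold change -0.18, edgeR adjusted p = 0.417), Cxcl10 (0.37, adjusted p = 0.334) and Cst7 (-0.32, adjusted p = 0.268) did not pass.

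The 7 of 10 members called stand beside a background of 86.3% of 19918 genes called between the regions, so their number is no result about the members. Of 21 receptor and ligand partners of the members, 3 were higher and 15 lower in NAc, with the Axl ligand Gas6 at -0.53 and the related receptor Tyro3 at -0.60 (log2 fold changes, as are those that follow). Of 22 other disease-associated microglia genes, 8 were higher and 11 lower, among them the tetraspanin gene Cd9 at 0.99 and the growth factor gene Igf1 at -1.57. Of 14 lipoprotein partners of Apoe and Lpl, 6 were higher and 7 lower, among them the receptors Vldlr at 0.71 and Sorl1 at -0.99. Of 16 homeostatic microglia markers, 4 were higher and 10 lower, with the complement gene C1qa at -0.60. Median log2 fold changes were -0.18 for the members, -0.20 for the partners, -0.13 for the other disease-associated genes, 0.0065 for the lipoprotein partners, -0.14 for the homeostatic markers and 0.0207 for all genes.

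Markers of other cell types moved with region too. Border macrophage markers, of which 7 of 8 were called lower in NAc, summed to 10.5 ± 1.54 CPM in NAc and 20.6 ± 4.12 CPM in PFC (SD, n = 48 each, as for the other sums). Meningeal fibroblast markers, of which 8 of 8 were lower, summed to 102 ± 21.99 CPM and 377 ± 142 CPM. Oligodendrocyte markers, of which 6 of 6 were higher, summed to 5332 ± 1008 CPM in NAc and 998 ± 229 CPM in PFC. With 86.3% of all genes called between the regions, the counts of called markers say nothing particular about these lists. Their sums nonetheless differed between the punches. Neuron markers (2 of 8 higher, 6 lower) summed to 5589 ± 464 CPM in NAc and 9527 ± 362 CPM in PFC, astrocyte markers (2 of 8 higher, 6 lower) to 4461 ± 341 CPM and 4867 ± 337 CPM, and homeostatic microglia markers to 479.8 ± 60.1 CPM and 518 ± 46.2 CPM. Their part in the members' regional differences was not tested.

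**Figure D3:**
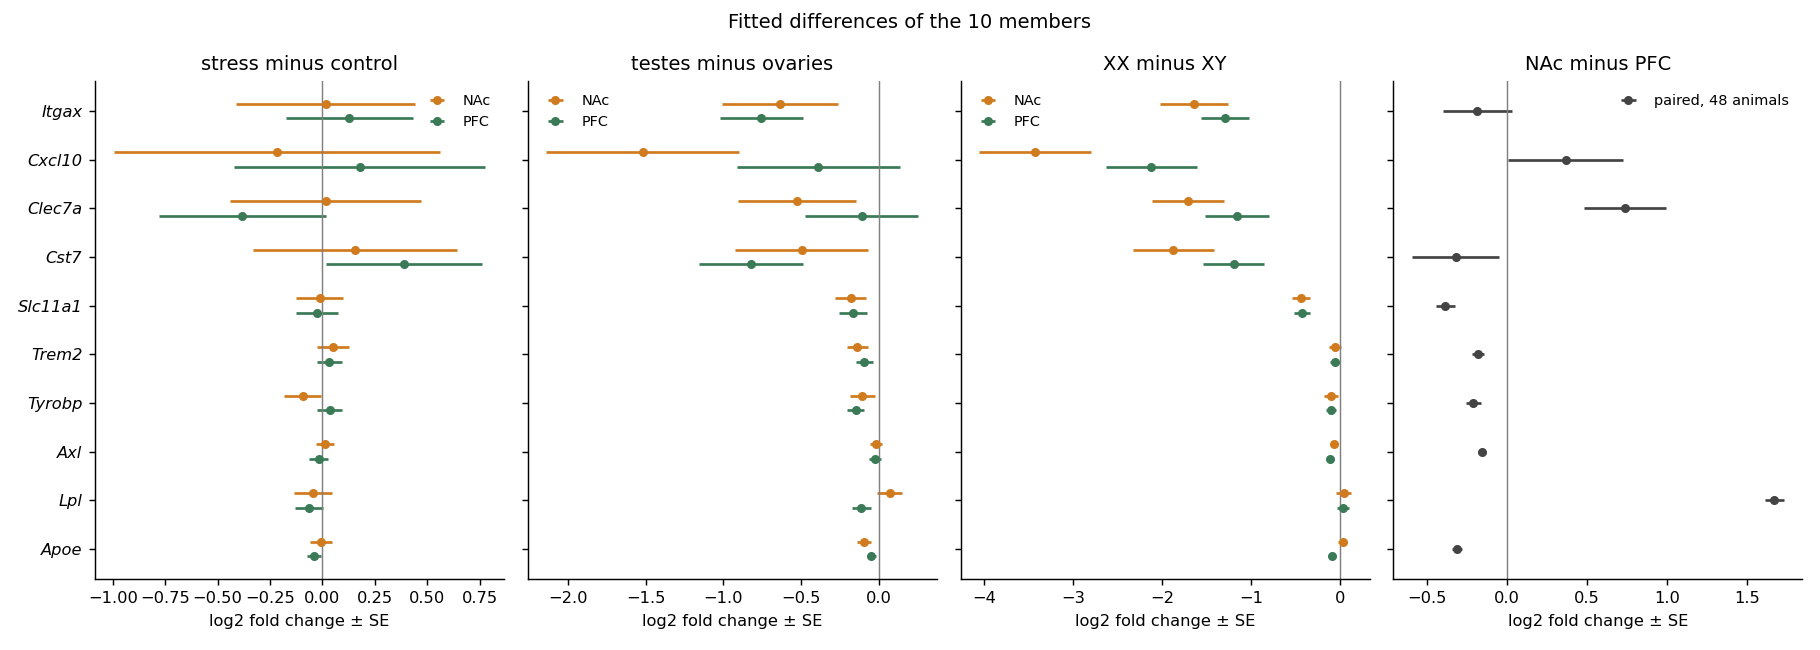
Log2 fold changes (± SE) of each member for stress minus control, testes minus ovaries, XX minus XY and NAc minus PFC, with NAc in orange above PFC in green in the first 3 panels. Lpl at 1.67 stands far from 0 between the regions, stress values lie on both sides of 0, and Cxcl10, Itgax, Cst7, Clec7a and Slc11a1 lie below 0 for XX minus XY.

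No member passed the test for stress in either region. For stress minus control, 0 of 10 members were called in NAc and 0 of 10 in PFC by edgeR, against a background of 0% of 19684 genes in NAc and 0% of 19292 in PFC. At an unadjusted p under 0.05 edgeR found 0 members in both regions, among 903 genes in NAc and 1105 in PFC, and DESeq2 called 0 members and 2 genes in each region. In each region 5 members lay above 0 and 5 below. Their log2 fold changes ran from -0.22 (Cxcl10, SE 0.778) to 0.16 (Cst7, SE 0.487) in NAc and from -0.38 (Clec7a, SE 0.400) to 0.39 (Cst7, SE 0.371) in PFC. Trem2 had 6.05, 7.26 and 11.4 CPM (lowest, median and highest) in stressed and 5.78, 7.30 and 12.5 CPM in control NAc. In PFC Trem2 had 7.35, 8.70 and 13.99 CPM in stressed and 7.09, 8.39 and 11.5 CPM in control animals. Stressed and control ranges overlapped almost wholly, and they did so for Apoe as well, with 465.7, 592 and 758 CPM in stressed and 508, 594 and 787 CPM in control NAc.

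Within each genotype, too, 0 of 40 pairs of member and genotype were called in NAc and 0 of 40 in PFC by edgeR (background 0% in each of the 8 comparisons), and those with an unadjusted p under 0.05 were 1 in NAc and 5 in PFC. Over all genes the share at an unadjusted p under 0.05 was 4.45% for stress within XY- NAc, 9.13% for XY- PFC and 5.80% for XXSry PFC. In PFC, 4 of the 5 were in XY- mice: Clec7a (log2 fold change 1.88, edgeR adjusted p = 0.314), Itgax (1.15, adjusted p = 0.418), Cxcl10 (2.04, adjusted p = 0.459) and Cst7 (1.30, adjusted p = 0.485). Itgax had 0.156, 0.557 and 6.38 CPM (lowest, median and highest) in stressed and 0.340, 0.453 and 1.15 CPM in control XY- PFC, so that the difference lay in the highest stressed libraries. Without mice 32 and 41 the values turned to -0.40 for Clec7a, -0.37 for Itgax, -0.27 for Cxcl10 and -0.42 for Cst7. These mice were picked for the most Itgax. In PFC they also ranked 1 and 2 of 48 for Clec7a and Cst7, and 1 and 3 for Cxcl10. The fall of all 4 genes was thus set by the choice. The fifth pair, on few counts, was Clec7a in XXSry PFC, with 0.0133, 0.0671 and 0.162 CPM in stressed and 0.141, 0.257 and 0.429 CPM in control mice and a log2 fold change of -1.86 (edgeR adjusted p = 0.803). In NAc it was Lpl in XY- mice, with 30.8, 64.4 and 85.4 CPM in stressed and 74.6, 85.4 and 94.5 CPM in control mice and a log2 fold change of -0.47 with an SE of 0.158 (by edgeR, adjusted p = 0.9997). The effect of stress was not called as different by chromosomes or by gonads for any member in either region by edgeR (background 0%), with 0 members in NAc and 2 in PFC for each of these tests at an unadjusted p under 0.05, and DESeq2 called 0 members.

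Testes against ovaries gave values below 0 for 9 of 10 members in NAc and 10 of 10 in PFC, none of which passed. By edgeR 0 of 10 members were called in NAc, against a background of 0.0102% of genes, and 0 of 10 in PFC, against 0.0467%, and DESeq2 called 0 members in both. Median log2 fold changes, testes minus ovaries, were -0.16 in NAc and -0.13 in PFC for the members and 0.0024 and 0.00022 for all genes. At an unadjusted p under 0.05 there were 3 members among 1826 genes in NAc: Cxcl10 (-1.52, SE 0.619, edgeR adjusted p = 0.509), Trem2 (-0.14, adjusted p = 0.536) and Apoe (-0.098, adjusted p = 0.535). In PFC there were 3 among 1301 genes: Itgax (-0.76, SE 0.265, edgeR adjusted p = 0.493), Tyrobp (-0.15, adjusted p = 0.496) and Cst7 (-0.82, adjusted p = 0.587). The levels behind them overlapped. Cxcl10 had 0, 0.0399 and 2.99 CPM (lowest, median and highest) with testes and 0, 0.0870 and 3.12 CPM with ovaries in NAc. Itgax had 0.0847, 0.263 and 0.477 CPM with testes and 0.0929, 0.345 and 6.38 CPM with ovaries in PFC. Without the 2 libraries of each region with the most Itgax, Itgax in PFC was -0.41, Cst7 in PFC -0.42 and Cxcl10 in NAc -1.76 (edgeR adjusted p = 0.196), and Cxcl10 and Clec7a in PFC turned to 0.15 and 0.41. In PFC both are from mice with ovaries and high in these genes, so the rise of the PFC values was set by the choice.

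Most interferon-response genes, microglia markers and blood genes also had values below 0. Of 28 interferon-response genes, 28 in NAc and 27 in PFC lay below 0 for testes minus ovaries, with medians of -0.63 and -0.26, and 0 were called in either region. They summed to 159 ± 69.6 CPM with testes and 215 ± 94.8 CPM with ovaries in NAc, and to 156 ± 16.02 CPM and 177 ± 66.9 CPM in PFC (SD, n = 24 each). Of the homeostatic microglia markers 13 of 16 in NAc and 16 of 16 in PFC lay below 0, with 0 called. They summed to 469.5 ± 56.5 CPM with testes and 490.1 ± 63.1 CPM with ovaries in NAc, and to 504 ± 31.2 CPM and 533 ± 54.1 CPM in PFC. All 5 blood genes lay below 0 in both regions, with 0 called, and summed to 58.01 ± 18.2 CPM with testes and 77.5 ± 27.6 CPM with ovaries in NAc, and to 137 ± 52.5 CPM and 181 ± 76.1 CPM in PFC. The part of these lists in the members' values was not tested.

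Between the genotypes with a Y- chromosome, XY-Sry minus XY-, 0 of 10 members were called in NAc (background 0%) and 0 in PFC (0.0259%) by edgeR, with 4 and 5 at an unadjusted p under 0.05, beside 8.69% and 4.68% of all genes. The widest values were Cxcl10 in NAc, at -2.33 (SE 0.749, edgeR adjusted p = 0.453), and Itgax in PFC, at -1.42 (SE 0.348, edgeR adjusted p = 0.234). Neither passed with all libraries, and each passed in only 1 of the 48 fits that left out 1 library of the region. Without control XY-Sry mouse 33, which had the most Cxcl10 of its genotype in NAc at 2.99 CPM, Cxcl10 passed at -3.17 (edgeR adjusted p = 0.0178). Without stressed XY- mouse 14, which had the least Itgax of its genotype in PFC at 0.156 CPM, Itgax passed at -1.55 (edgeR adjusted p = 0.0479). Leaving out these libraries widens the difference in itself, so nothing is read from these calls. Without the 2 libraries with the most Itgax, Cxcl10 in NAc was -2.75 (edgeR adjusted p = 0.0699) and Itgax in PFC -0.59 (edgeR adjusted p = 0.9996). In PFC both are from XY- mice, so the smaller Itgax value was set by the choice. For XXSry minus XX, 0 members were called in NAc (background 0%) and 0 in PFC (0.00518%), with 0 and 2 at an unadjusted p under 0.05, beside 3.25% and 6.65% of all genes.

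Values of XX against XY were known when the members were chosen. They and the calls made on them are given as a description from which nothing is read. Cxcl10, Itgax, Cst7, Clec7a and Slc11a1 had lower levels in XX, and the other 5 members had log2 fold changes, XX minus XY, between -0.11 and 0.038. In NAc Cxcl10 had 0, 0.0253 and 0.337 CPM in XXSry, 0.0134, 0.0521 and 0.347 CPM in XX, 0, 0.113 and 2.99 CPM in XY-Sry and 0, 0.814 and 3.12 CPM in XY- mice (lowest, median and highest of each genotype). In PFC it had 0, 0.0445 and 0.271 CPM in XXSry, 0, 0.0280 and 0.235 CPM in XX, 0.0114, 0.139 and 1.19 CPM in XY-Sry and 0.0122, 0.181 and 4.16 CPM in XY- mice. Of 25 XY libraries, 12 in NAc (10 of them XY-) and 6 in PFC were above the highest XX library, and the rest overlapped with XX. The log2 fold change of Cxcl10, XX minus XY, was -3.43 (SE 0.629) in NAc and -2.12 in PFC.

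Itgax had its highest genotype median in XY- mice in both regions. In NAc it had 0.0580, 0.109 and 0.319 CPM in XXSry, 0, 0.188 and 0.514 CPM in XX, 0.0543, 0.287 and 3.48 CPM in XY-Sry and 0.173, 0.491 and 3.12 CPM in XY- mice. In PFC it had 0.0847, 0.163 and 0.329 CPM in XXSry, 0.0929, 0.1995 and 0.434 CPM in XX, 0.227, 0.323 and 0.477 CPM in XY-Sry and 0.156, 0.510 and 6.38 CPM in XY- mice. Of the XY libraries above the highest XX library, 6 of 7 in NAc and 9 of 10 in PFC were XY-. The log2 fold change of Itgax was -1.65 (SE 0.381) in NAc and -1.29 in PFC.

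For Cst7, Clec7a and Slc11a1 fewer XY libraries stood above all XX libraries in PFC than in NAc. Cst7 had 0, 0.0510 and 0.188 CPM in XXSry, 0, 0.0634 and 0.161 CPM in XX, 0, 0.129 and 1.54 CPM in XY-Sry and 0.0253, 0.262 and 1.03 CPM in XY- mice in NAc, and a log2 fold change of -1.88 (SE 0.454) in NAc and -1.20 (SE 0.344) in PFC. Clec7a had 0, 0.0986 and 0.319 CPM in XXSry, 0.0145, 0.143 and 0.524 CPM in XX, 0.0543, 0.283 and 2.85 CPM in XY-Sry and 0.0561, 0.400 and 2.55 CPM in XY- mice in NAc, and a log2 fold change of -1.71 (SE 0.408) in NAc and -1.16 (SE 0.356) in PFC. Slc11a1 had 0.738, 1.51 and 1.81 CPM in XXSry, 1.07, 1.59 and 1.95 CPM in XX, 1.10, 1.61 and 3.74 CPM in XY-Sry and 1.77, 2.08 and 2.86 CPM in XY- mice in NAc, and a log2 fold change of -0.44 (SE 0.104) in NAc and -0.43 (SE 0.0908) in PFC. The number of XY libraries above the highest XX library was 9 in NAc and 5 in PFC for Cst7, 5 and 2 for Clec7a, and 12 and 6 for Slc11a1, of 25. Genotype medians of the higher members were close: in NAc Trem2 had 7.31, 7.31, 6.72 and 7.89 CPM, and Apoe 589, 594, 563 and 615 CPM, in XXSry, XX, XY-Sry and XY- mice in that order. The edgeR fit called 5 members lower in XX in NAc, where the background is 0.584% of genes, and 3 in PFC (Cxcl10, Itgax and Slc11a1), where it is 1.12%. These counts follow from how the members were chosen and are no evidence about them.

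The size of these values varied when the libraries that stood apart were left out, between cohorts and between gonads. Whether it differed by cohort was not tested. Without the 2 libraries of each region with the most Itgax, Cxcl10 was -2.82 in NAc and -1.63 in PFC, Itgax -1.17 and -1.01, Cst7 -1.43 and -0.86, Clec7a -1.23 and -0.75, and Slc11a1 -0.36 and -0.35. All of these libraries were XY and ranked within the highest 3 of their region for each of these 5 genes, so the smaller differences were set by the choice. Fitted within cohorts 1, 2 and 3 alone, with additive terms for stress, chromosomes and gonads, Cxcl10 gave -2.82, -4.20 and -4.91 in NAc and -1.97, -2.41 and -3.69 in PFC. Itgax gave -1.50, -1.44 and -2.16 in NAc and -1.20, -0.53 and -2.89 in PFC, and Cst7 in PFC gave -1.44, 0.013 and -2.87. Of these 5 genes, the direction was the same in each cohort but for Cst7 in PFC of cohort 2, at about 0. Split by gonads, Itgax in PFC was -0.63 with testes and -1.95 with ovaries, and Clec7a in PFC 0.015 and -2.33. The chromosome by gonad interaction was called for 0 of 10 members in NAc and 0 in PFC by edgeR (background 0% in both), with 0 and 2 members (Clec7a and Itgax) at an unadjusted p under 0.05, and DESeq2 called 0 members.

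Interferon-response genes had lower levels in XX in the same libraries. The lists, too, were chosen with earlier results of these data known, so their values and calls here are a description from which nothing is read. All 28 lay below 0 for XX minus XY in both regions, with medians of -0.95 in NAc and -0.53 in PFC, beside -0.27 and -0.27 for the members. Of the 28, 19 in NAc and 13 in PFC were called lower, where 0.584% and 1.12% of all genes were called. Among them were the antiviral genes Mx1 (-2.07 in NAc), Ifit1 (-1.67 in NAc) and Rsad2 (-0.74 in PFC), and the regulator Irf7 (-0.87 in PFC). Their sum ran over 127 to 211 CPM in XX and 133 to 478 CPM in XY NAc, and over 137 to 164 CPM in XX and 144 to 479 CPM in XY PFC. Microglia markers in sum overlapped between the chromosomes. The homeostatic list ran over 415 to 539 CPM in XX and 370.4 to 683 CPM in XY NAc, and over 452 to 571 CPM in XX and 432 to 698 CPM in XY PFC, with medians of -0.055 and -0.067. In PFC 1 of its 16 genes was called higher (Fcrls, 0.29) and 2 lower (Siglech, -0.20, and C1qc, -0.20), and in NAc 0. Of the 22 other disease-associated genes, 3 were called lower in NAc (Cd52, -0.80, Cybb, -1.45, and B2m, -0.51) and 0 in PFC. The Y- of the model reportedly bears X-derived sequence that includes Tlr7, an endosomal RNA sensor. Tlr7 averaged 3.21 ± 0.606 CPM in XX and 7.62 ± 1.92 CPM in XY NAc, and 4.25 ± 0.535 CPM and 9.42 ± 1.34 CPM in PFC (SD, n = 23 XX and 25 XY). The part of Tlr7 and of the interferon-response genes in the members' values was not tested.

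**Figure D4:**
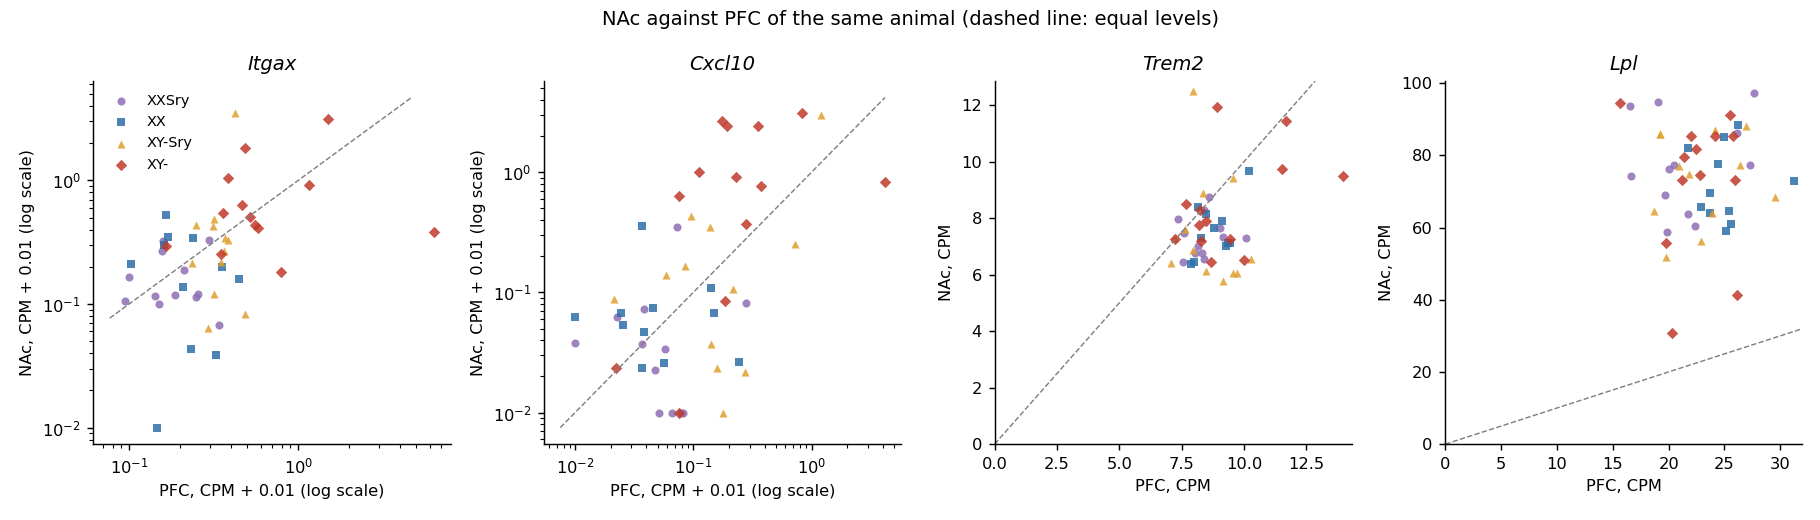
CPM in NAc against CPM in PFC of the same animal for Itgax and Cxcl10 (CPM + 0.01, log axes) and for Trem2 and Lpl (linear axes), coloured by genotype, with a dashed line where both regions are equal. For Lpl each animal lies on the NAc side of the line, and mouse 32, highest for Itgax in PFC at 6.38 CPM, has 0.372 CPM in NAc.

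Between the regions of the same animal the members varied together weakly or not at all. Over 48 animals, Pearson r of log2 levels left after group and cohort means was 0.36 for Cxcl10, 0.35 for Trem2, 0.25 for Slc11a1, 0.15 for Tyrobp and 0.15 for Clec7a, beside a median of 0.0897 over 14032 genes. The other 5 members lay below that median, Axl at 0.075, Cst7 at 0.039, Lpl at 0.036, Itgax at 0.026 and Apoe at -0.15. Within a region, over 48 libraries that share depth and tissue makeup, the receptor Trem2 and its adaptor Tyrobp had an r of 0.71 in NAc and 0.78 in PFC, the highest Pearson r of all pairs of members. By Spearman's rho other pairs were higher, Axl and Apoe in NAc (0.68, against 0.66 for Trem2 and Tyrobp) and Trem2 and Axl in PFC (0.71, against 0.67). Trem2 and Axl had an r of 0.62 in NAc and 0.72 in PFC, and Lpl and Apoe -0.029 and 0.028. Itgax had an r of 0.74 in NAc and 0.64 in PFC with the interferon-response genes, where Spearman's rho was 0.63 and 0.28. Lpl had an r of -0.48 with neuron markers and 0.45 with endothelium markers in NAc, and Trem2 had 0.71 and 0.69 with the homeostatic markers.

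**Figure D5:**
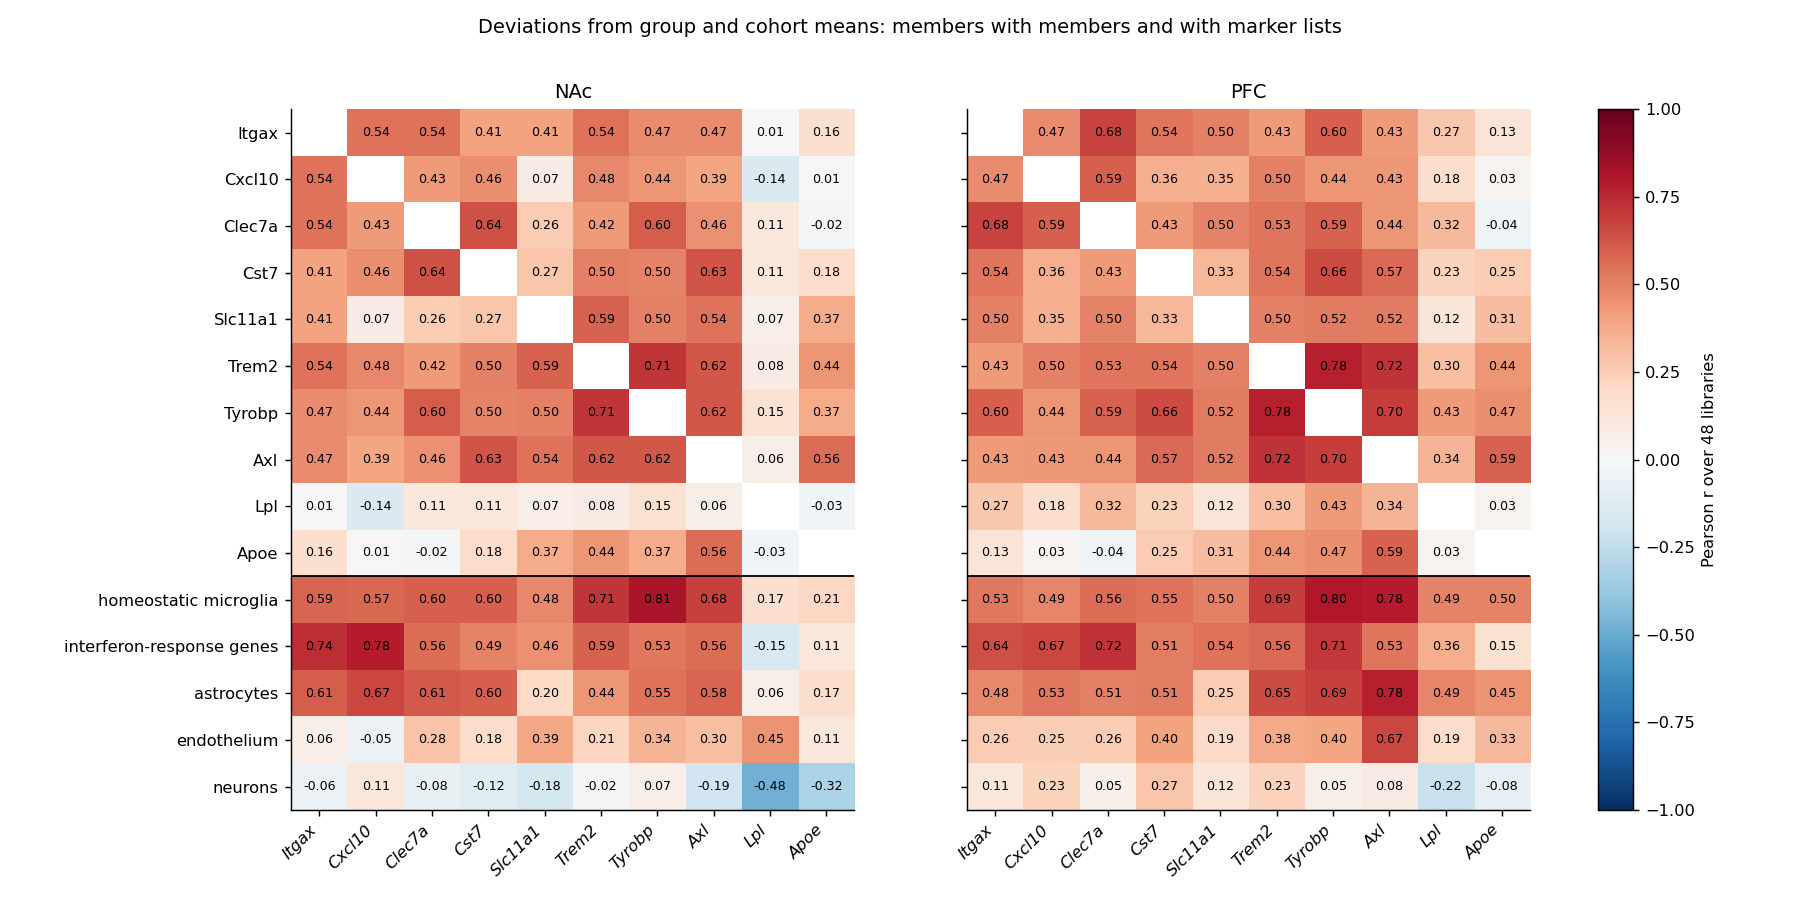
Pearson r among the members and with marker lists, NAc left and PFC right, over 48 libraries each after removal of group and cohort means. The pair of Trem2 and Tyrobp has the highest Pearson r between members in both regions, and Lpl is near 0 with the other members in NAc but at -0.48 with neuron markers.

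The non-member genes most like each member, by the same r over 48 libraries, fell into several kinds. Cxcl10 was most like Ifit1 (0.82), Gbp3 (0.81) and Ifit3b (0.79) in NAc and Rnf213 (0.73) and Ifit3b (0.67) in PFC, which interferon is known to induce. Itgax was most like Xaf1 (0.80), B2m (0.78) and Tor3a (0.78) in NAc and Ctss (0.79), Lgals3bp (0.72) and Eif2ak2 (0.72) in PFC. Tyrobp was most like C1qc (0.86), C1qa (0.83) and C1qb (0.82) in NAc, the subunits of complement C1q, and C1qc (0.83), C1qa (0.82) and Ly86 (0.82) in PFC. Trem2 was most like Lag3 (0.84), Unc93b1 (0.82) and C1qb (0.81) in NAc and Npc2 (0.77), Cd68 (0.75) and Laptm5 (0.74) in PFC. Genes of microglia or macrophages were also among those nearest to Clec7a, which were Ccl9 (0.70) and Ly86 (0.69) in NAc and Ctss (0.77), Fyb (0.75) and Csf3r (0.74) in PFC, and to Cst7, which were Lyz2 (0.71), Laptm5 (0.67) and Gsdmd (0.65) in NAc and C1qb (0.76), Cd52 (0.73) and Lgals3bp (0.72) in PFC. The genes nearest to Slc11a1, of whatever cell type, were C1qc (0.70), C1qb (0.69) and Spi1 (0.66) in NAc and Fbxl19 (0.67), Pld4 (0.65) and Rrbp1 (0.65) in PFC. Those nearest to Axl were C4b (0.78), C1qc (0.77) and Lgals3bp (0.76) in NAc and Tln1 (0.84), Gpam (0.83) and Clu (0.82) in PFC. With marker lists in PFC, Axl had an r of 0.78 for homeostatic microglia, 0.78 for astrocytes and 0.67 for endothelium. Lpl and Apoe had neighbours that were not among these. Lpl was most like Oprk1 (0.91) and Wdr17 (0.89) in NAc, of which Oprk1 encodes the kappa opioid receptor, and Acvr1c (0.67), Trpc6 (0.66) and Aldh3b1 (0.64) in PFC. Apoe was most like Rpl6 (0.89), Rpl37 (0.89) and Fau (0.88) in NAc, all genes of ribosomal proteins, and Fxyd1 (0.74), Rpl13a (0.73) and Slc25a18 (0.72) in PFC.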

How the data were processed

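RNA of tissue punches was sequenced as paired reads of 50 bp, per the labels' protocols. Tools named in the submitters' processing notes, without their roles, are HISAT2 2.2.0, Trimmomatic 0.38, FastQC 0.11.9, DESeq2 and edgeR, and the build is GRCm38 (mm10). The deposited values are raw counts per Ensembl gene; how the authors counted, with which annotation and strand setting, was not given in the sources used here. Symbols and exon lengths came from GENCODE M21 (19795 of 19918 IDs matched). The members and lists were chosen with earlier results of these data known.

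Counts of each region (48 libraries) were fitted with edgeR 4.0.16 (R 4.3.3, limma 3.58.1) by TMM, filterByExpr and a robust quasi-likelihood test on 8 group means plus cohort, with Benjamini-Hochberg adjustment over all genes tested and a threshold of 0.05. NAc and PFC were compared in 1 fit with the animal, given by the number in the titles, as block. The fit was tested on simulated data. CPM used TMM totals, and correlations used log2(CPM + 0.05). All 10 members and, from each list, up to 4 called genes by smallest p were named, with the 3 nearest genes of at least 1 CPM for likeness, of which a few are not reported here. Alternatives were DESeq2 1.42.0 size factors and Wald test, no filter or 1 CPM in 12 libraries, no cohort term, single cohorts, each library left out, no block, unstressed animals alone and, added after the values were seen, leaving out the libraries that stood apart.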

Additional observations from a re-analysis of the deposited data

Results flagged for a closer look

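In 26 of 160 sets of 1 member in 1 group and region, the highest or lowest library lay farther from the rest than Dixon's 95% critical value allows. For independent, normally distributed values chance flags about 1 in 20, which is 8 of 160. Low counts are skewed and the members vary together, so that number does not hold here and no excess is read. It was the highest library in 24 sets and the lowest in 2.

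The largest numbers of such values came from 3 animals. In PFC, stressed XY- mouse 32 had 4.16 CPM of Cxcl10 (next 0.825), 6.38 of Itgax (next 1.49), 2.77 of Clec7a (next 1.04), 2.06 of Cst7 (next 0.625) and 14.6 of Tyrobp (next 10.2). In NAc, control XY-Sry mouse 33 had 2.99 CPM of Cxcl10 (next 0.423), 3.48 of Itgax (next 0.417), 2.85 of Clec7a (next 0.474), 1.54 of Cst7 (next 0.220) and 13.1 of Tyrobp (next 8.45). In NAc, stressed XY- mouse 41 had 3.12 CPM of Cxcl10 (next 1.00), 2.55 of Clec7a (next 0.587) and 0.938 of Cst7 (next 0.360).

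Each of the others came from a library with 1 such value. For Cxcl10, NAc of stressed XXSry mouse 12 had 0.337 CPM (next 0.0271) and of control XX mouse 10 had 0.347 CPM (next 0.0643), and PFC of control XXSry mouse 51 had 0.271 CPM (next 0.0714) and of control XX mouse 35 had 0.138 CPM (next 0.0358). For Clec7a, NAc of stressed XX mouse 43 had 0.524 CPM (next 0.198) and PFC of control XX mouse 10 had 0.175 CPM (next 0.0755). For Itgax, NAc of control XXSry mouse 39 had 0.319 CPM (next 0.156). For Slc11a1, NAc of stressed XY-Sry mouse 23 had 2.61 CPM (next 1.70) and PFC of control XY- mouse 6 had 3.39 CPM (next 2.83). For Cst7, NAc of control XY- mouse 36 had 1.03 CPM (next 0.478), and for Trem2, PFC of control XX mouse 2 had 10.2 CPM (next 8.49). The lowest values were 32.9 CPM of Axl in NAc of stressed XXSry mouse 4 (next 36.4) and 51.8 CPM of Lpl in NAc of stressed XY-Sry mouse 7 (next 74.9).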

How the results depend on the processing

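Counts of members called for XX minus XY, on values known when the members were chosen, support nothing, and they moved most with the processing. In PFC, 3 were called, against 5 with DESeq2's Wald test, 5 with no cohort term, 1 with the stricter filter (6 members tested), 2 in cohort 1 alone and 0 in cohort 2 or cohort 3 alone. In NAc, 5 were called, against 1 with the stricter filter, 0 in cohort 1 or cohort 2 alone, 1 in cohort 3 alone and, as an alternative chosen after seeing the data, 2 without the libraries that stood apart. Single cohorts hold fewer animals, and the stricter filter tests fewer members; for the others the cause was not tested. With each library left out in turn, the count ran from 3 to 5 in PFC and from 2 to 5 in NAc, that for testes minus ovaries within XX and within XY- from 0 to 1 in each region, and the counts for stress, gonads and interactions stayed at 0. Over all genes DESeq2 called 356 for XX minus XY in PFC, against 217 by edgeR, and 68 genes were called for testes minus ovaries in NAc without the libraries that stood apart, against 2 with them. Of NAc minus PFC, 7 members were called with the animal as replicate block and 7 with no replicate block, 6 of 6 tested under the stricter filter and 6 in unstressed animals, where Clec7a was at 0.62 (edgeR adjusted p = 0.162). The pairing comes from the animal number in the titles. Within a region each number is 1 animal, so no groups are paired there. No single member's called value changed sign. Depth limits Cxcl10, Cst7, Clec7a and Itgax, which have libraries at or near a count of 0.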

Other observations

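Lpl was low in NAc of stressed XY- mice 26 and 32, at 30.8 and 41.2 CPM, against 51.8 to 97.3 CPM in the other 46 NAc libraries. Oprk1 and Wdr17, which were most like it, were at their lowest in the same 2 libraries. Oprk1, the kappa opioid receptor gene, had 34.5 and 47.2 CPM there, against 54.4 to 106 CPM in the others. Wdr17 had 71.4 and 73.3 CPM, against 86.4 to 125 CPM. These libraries were singled out after their values were seen, and the cause was not tested.

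Among 12 measured chemokine genes, 4 were called higher and 6 lower in NAc than in PFC, beside 86.3% of all genes called, so the count says nothing particular about chemokines. The B cell chemokine gene Cxcl13 had a log2 fold change, NAc minus PFC, of 5.77, with means of 0.633 CPM in NAc and 0.0176 CPM in PFC. The fractalkine gene Cx3cl1, made by neurons, had a value of -0.48.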
